A study of Mus musculus with 24 samples.

Results

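Expression of 10 taste transduction genes that tuft cells use was read in sorted cells of the mouse ileum: *Sucnr1*, *Ffar3* and *Tas1r3* (receptors), *Gnat3*, *Gnb3* and *Gng13* (G protein subunits), *Plcb2* (phospholipase), *Itpr3* and *Lrmp* (calcium release) and *Trpm5* (cation channel). They were chosen by name, with their levels in these libraries already known, and all 10 were found among the 39056 genes of the count table. Taste cells and intestinal tuft cells share a signaling chain that turns a bound ligand into a change of membrane voltage. A G protein-coupled receptor activates a heterotrimeric G protein, its beta and gamma subunits activate phospholipase C, the inositol trisphosphate that this enzyme makes opens calcium stores, and the calcium opens a cation channel. Tuft cells are rare epithelial cells that use this chain to sense the contents of the gut and that release IL-25, and IL-4 and IL-13 acting on the epithelium are known to raise their number.

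Ileal cells of C57BL/6 mice were sorted alive by CD45, a surface protein of blood cells, and RNA was sequenced from 3 libraries of each of 4 genotypes in the CD45+ and in the CD45- fraction. HOIL1-sufficient mice were Hoil1+/+Il4raflox/flox (called f/f) or, with Cre, Hoil1+/+Il4raflox/flox+Vil1cre (called ΔIEC, and dIEC in the plots). HOIL1-deficient mice were Hoil1-/-Il4raflox/flox (f/f) or, with Cre, Hoil1-/-Il4raflox/flox+Vil1cre (ΔIEC), so all mice carried the floxed *Il4ra* alleles. The *Vil1cre* transgene deletes *Il4ra* in intestinal epithelial cells and leaves it in other cells, and the *Hoil1*-/- mice still make a low amount of an N-terminal part of HOIL1, so their deficiency is partial. The mice were 9 to 10.3 weeks old. Replicate numbers here only name the libraries. The labels do not say whether each library came from a mouse of its own. In the paper's figure of CD45+ RNA-seq levels, the legend describes each symbol as the sample of an individual mouse. P-values measure the spread between these libraries, which may in part be technical.

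The libraries held 6028275 to 68345191 counts on genes in CD45- cells and 14938629 to 76807504 in CD45+ cells. Levels are CPM, a gene's counts scaled to a common library size by the TMM method within a fraction. The sort was visible in marker genes: the summed level of 8 immune markers was 37.7 to 212 CPM in the CD45- libraries and 3833 to 5095 CPM in the CD45+ libraries, while 12 epithelial markers summed to 1631 to 16244 CPM and 59.2 to 425 CPM. *Rbck1*, the gene that encodes HOIL1, was at 0 to 8.18 CPM in the *Hoil1*-/- and 85.5 to 122 CPM in the *Hoil1*+/+ CD45- libraries, and at 4.70 to 13.9 CPM and 79.2 to 138 CPM in the CD45+ libraries. *Il4ra* in CD45- cells did not separate the genotypes, with 62.8 to 173 CPM in the f/f and 52.8 to 141 CPM in the ΔIEC libraries. The study removed 3 libraries as outliers in its principal component analysis: replicate 3 of CD45- HOIL1-deficient f/f, replicate 1 of CD45+ HOIL1-deficient f/f and replicate 3 of CD45+ HOIL1-deficient ΔIEC. Replicate 3 of CD45- HOIL1-deficient f/f differed from its fellow libraries in several of the 10 genes, so its values are printed beside those of the other libraries, and the members' ratios are given with and without it. Means leave the 3 libraries out unless all libraries are named.

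Promoters of 3 members are shown because their genes sit at the start and the end of the chain and were high in the same libraries, with a stretch of *Itpr3*. An exact copy of the octamer, the site that POU factors bind, lies close to the start of 2 members. POU2F3, a factor of this family, is required for tuft cells. RefSeq windows of GRCm38.p6 were at hand for 8 of the 10 genes (9 windows, 2 of them for *Gng13*), and none was at hand for *Lrmp* and *Gnb3*. Each sequence is the 250 bases before the annotated start, 5′ to 3′ on the gene's strand, in lower case, with the octamer (or its copy with 1 mismatch in *Ffar3*) in capitals. *Trpm5* has no octamer in its window and is printed without capitals.
Sucnr1 (chr3:60081619-60081868, plus strand): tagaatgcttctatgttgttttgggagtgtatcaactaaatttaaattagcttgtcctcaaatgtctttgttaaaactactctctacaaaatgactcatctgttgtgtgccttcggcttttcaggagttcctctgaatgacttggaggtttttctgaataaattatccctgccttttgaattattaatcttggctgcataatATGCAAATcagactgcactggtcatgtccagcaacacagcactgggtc
Ffar3 (chr7:30856179-30856428, minus strand): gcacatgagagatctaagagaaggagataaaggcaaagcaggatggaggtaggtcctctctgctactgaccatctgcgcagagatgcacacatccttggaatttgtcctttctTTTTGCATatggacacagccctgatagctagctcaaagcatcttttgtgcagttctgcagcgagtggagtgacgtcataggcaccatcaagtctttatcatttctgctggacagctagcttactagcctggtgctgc
Trpm5 (chr7:143094643-143094892, minus strand): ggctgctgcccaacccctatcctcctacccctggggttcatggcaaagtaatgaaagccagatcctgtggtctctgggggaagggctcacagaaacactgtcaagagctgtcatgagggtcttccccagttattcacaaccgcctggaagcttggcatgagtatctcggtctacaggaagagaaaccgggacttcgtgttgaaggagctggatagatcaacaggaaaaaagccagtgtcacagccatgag
For *Itpr3* only the 30 bases around the octamer are given.
Itpr3 (chr17:27057266-27057295, plus strand): tcccaggcgggATTTGCATgtgtgtggcgg

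The octamer was searched as ATGCAAAT on both strands, which reads ATTTGCAT on the other. The match began 48 bases before the start of *Sucnr1* and 27 bases before that of *Itpr3*, which makes 2 of the 9 windows. Of 32851 RefSeq mouse promoters of the same length, 1.60% held an exact octamer. With 1 mismatch allowed, which includes the exact matches, 4 of 9 windows and 16.6% of all promoters had one. The windows were those of *Sucnr1*, *Itpr3*, *Ffar3* and *Gnat3*, and in *Ffar3* the match began 137 bases before the start. The windows of *Trpm5*, *Plcb2*, *Gng13* and *Tas1r3* had no such match. Whether a match goes with the level of a gene was not tested. TTC and GAA separated by any 4 bases, the core of a STAT site, occurred in 2 of 9 windows (*Gnat3* and *Sucnr1*) and in 5.85% of all promoters, and the TATA box searched as TATAAA in 0 of 9 and 12.4%. These matches describe the letters of the windows and were not tied to binding in these cells.

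Of the 3 receptors, *Ffar3* and *Sucnr1* were highest in CD45- cells of HOIL1-deficient f/f mice. *Ffar3*, a receptor for short-chain fatty acids on the minus strand of chromosome 7 (30854330 to 30856178), had 24.005 and 32.7 CPM in replicates 1 and 2 of HOIL1-deficient f/f mice and no count in replicate 3. Across the other 9 libraries it ranged from 0 to 2.998 CPM, with counts in 5 of them. *Sucnr1*, the receptor for succinate on the plus strand of chromosome 3 (60081869 to 60087566), was at 4.18, 16.7 and 4.08 CPM in HOIL1-deficient f/f mice and had counts in 3 of the other 9 libraries, up to 1.38 CPM. The ratio of HOIL1-deficient f/f to HOIL1-sufficient f/f means was 43.0 for *Ffar3* and 62.8 for *Sucnr1*, the latter on 491 counts against 10. With replicate 3 in the mean the ratios were 28.6 and 50.0. In bulk RNA of a sorted fraction, here and below, fewer cells of a type and less RNA per cell cannot be told apart.

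*Tas1r3*, a subunit shared by the sweet and umami taste receptors (minus strand of chromosome 4, 155859268 to 155863362), did not follow them. It was at 0, 2.70 and 0 CPM in HOIL1-deficient f/f, at 0, 2.79 and 2.21 CPM in HOIL1-sufficient f/f, at 0, 2.84 and 1.55 CPM in HOIL1-sufficient ΔIEC and at 1.42, 0 and 0 CPM in HOIL1-deficient ΔIEC libraries. Every genotype had a library with no count and one above 1 CPM, so the groups overlapped. The partner subunits and the bitter receptors were nearly absent: of 37 other taste receptor genes, 1 had a count in any CD45- library and none of the 35 *Tas2r* genes did, and 4 and 2 had one in CD45+ libraries.

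The G protein subunits were detected in few libraries. In a CD45- library, 3 counts correspond to 0.039 to 0.488 CPM, and such floors cover counting error only, since the reads had no molecular identifiers. *Gnat3*, the alpha subunit gustducin (plus strand of chromosome 5, 17962549 to 18019834), had 139 counts (5.22 CPM) in replicate 2 of HOIL1-deficient f/f mice and 0 in replicates 1 and 3, and 3 of the other 9 libraries held 8 to 31 counts. *Gnb3*, a beta subunit (minus strand of chromosome 6, 124834240 to 124840275), had 29 counts (2.64 CPM) in replicate 1 of HOIL1-deficient f/f mice and none in the other 11 libraries. *Gng13*, the gamma subunit of taste cells (plus strand of chromosome 17, 25717171 to 25719406), was at 1.45, 10.4 and 0 CPM in HOIL1-deficient f/f mice. It had no count in HOIL1-sufficient f/f mice, but it was at 0.66, 0.86 and 3.42 CPM in HOIL1-deficient ΔIEC mice, which overlapped HOIL1-deficient f/f mice. Against the floor of 3 counts over the HOIL1-sufficient f/f libraries, the HOIL1-deficient f/f mean of *Gng13* was at least 109-fold higher, that of *Gnat3* at least 47.7-fold and that of *Gnb3* at least 24.1-fold. With replicate 3 in the mean these bounds were 72.4, 31.8 and 16.1. Of these subunits *Gnb3* and *Gnat3* rested on 1 HOIL1-deficient f/f library each.

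*Plcb2*, on the minus strand of chromosome 2 (118707517 to 118728438), encodes the phospholipase C isoform of taste cells. It was at 27.7, 49.95 and 16.05 CPM in HOIL1-deficient f/f libraries. The HOIL1-sufficient f/f libraries were at 0.42, 3.04 and 5.17 CPM, the HOIL1-sufficient ΔIEC libraries at 1.499, 1.34 and 0.03 CPM, and the HOIL1-deficient ΔIEC libraries at 2.29, 1.47 and 0.81 CPM. All 3 HOIL1-deficient f/f libraries were above the other 9. The ratio of the means was 13.5 against HOIL1-sufficient f/f and 25.5 against HOIL1-deficient ΔIEC mice, and 10.9 and 20.5 with replicate 3.

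*Itpr3*, the inositol trisphosphate receptor of taste cells (plus strand of chromosome 17, 27057304 to 27122223), differed little between the genotypes. It was at 186, 156 and 119 CPM in HOIL1-deficient f/f, at 127, 133 and 141 CPM in HOIL1-sufficient f/f, at 136, 127 and 150 CPM in HOIL1-sufficient ΔIEC and at 138, 138 and 57.1 CPM in HOIL1-deficient ΔIEC libraries. The ratio of HOIL1-deficient f/f to HOIL1-sufficient f/f means was 1.28, and with replicate 3 it was 1.15 and the groups overlapped. *Itpr3* was the most abundant member outside HOIL1-deficient f/f mice, at 14.8 CPM per kb of exon in HOIL1-sufficient f/f mice where *Trpm5* was at 1.59 and *Lrmp* at 0.53. In HOIL1-deficient f/f mice *Trpm5* was highest per length, at 38.6 CPM per kb, followed by *Lrmp* at 24.2, *Itpr3* at 18.9, *Ffar3* at 15.3, *Gng13* at 7.69, *Sucnr1* at 6.37 and *Plcb2* at 5.89. Only 2 libraries stand behind each of these means. In both of them *Trpm5* was above *Lrmp*, and from *Lrmp* on the ranges of neighbours in this order overlapped. With replicate 3 the values were 25.9 for *Trpm5*, 17.01 for *Itpr3*, 16.9 for *Lrmp*, 10.2 for *Ffar3*, 5.13 for *Gng13*, 5.07 for *Sucnr1* and 4.74 for *Plcb2*, so that *Itpr3* and *Lrmp* changed places and all neighbours overlapped.

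*Lrmp*, also called *Jaw1*, encodes a protein of the endoplasmic reticulum that binds inositol trisphosphate receptors. It is on chromosome 6 (plus strand, 145115653 to 145174934). The HOIL1-deficient f/f libraries were at 71.4, 125 and 9.60 CPM, and the other 9 libraries between 1.64 and 5.77 CPM. All 3 HOIL1-deficient f/f libraries were above every library of the other genotypes, replicate 3 by the least. Their mean without replicate 3 was 98.3 ± 38.1 CPM (SD, n = 2), beside 2.15 ± 0.53 CPM (SD, n = 3) for HOIL1-sufficient f/f mice, a ratio of 45.8, or 32.0 with replicate 3.

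*Trpm5* encodes the calcium-activated cation channel that ends the chain. Its coordinates in GRCm38 are 143069153 to 143094642 on the minus strand of chromosome 7. The CD45- libraries of HOIL1-deficient f/f mice held 235, 259 and 3.03 CPM of it in replicates 1, 2 and 3. The HOIL1-sufficient f/f libraries were at 9.53, 6.73 and 14.3 CPM, the HOIL1-sufficient ΔIEC libraries at 17.6, 10.9 and 9.67 CPM, and the HOIL1-deficient ΔIEC libraries at 13.97, 7.27 and 14.5 CPM. Replicates 1 and 2 of HOIL1-deficient f/f thus stood above all 9 libraries of the other genotypes, and replicate 3 stood below all of them. The mean was 247 ± 16.9 CPM (SD, n = 2) against 10.2 ± 3.80 CPM (SD, n = 3) in HOIL1-sufficient f/f mice, a ratio of 24.3, which became 16.3 with replicate 3 in the mean. Against HOIL1-deficient ΔIEC mice, at 11.9 ± 4.02 CPM (SD, n = 3), the ratio was 20.8 and 13.9.

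**Figure D1:**
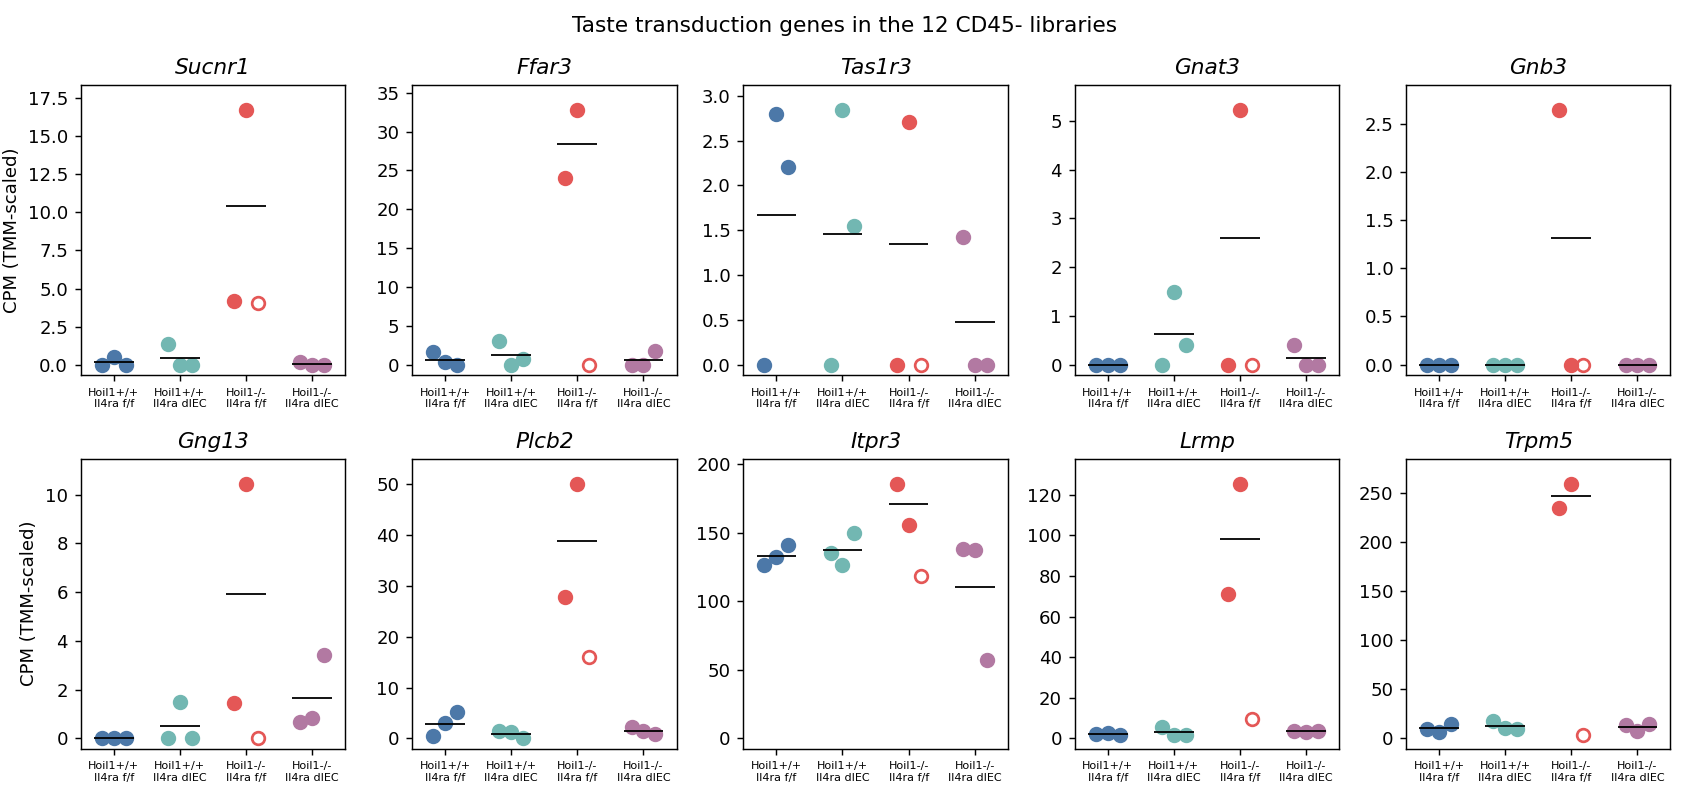
CPM of the 10 genes (one panel each, linear axes) in the 12 CD45- libraries by genotype, with filled points for libraries in the study's list, the open point for replicate 3 of HOIL1-deficient f/f mice and a line at the mean of the filled points. Replicates 1 and 2 of HOIL1-deficient f/f mice stand above the other genotypes for Trpm5, Lrmp, Plcb2, Ffar3, Sucnr1 and, by little, Itpr3, and the open point is at 3.03 CPM for Trpm5 and at 0 for Ffar3.

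Read over the whole list, 9 of 10 genes had a HOIL1-deficient f/f to HOIL1-sufficient f/f ratio above 1, with a median log2 ratio of 5.01 in which the 3 G protein subunits stand at their lower bounds. With all 12 libraries the median was 4.43. The median of all 16453 genes tested was -0.17, a value taken on edgeR's log2 fold changes after the filter on low counts. It is thus not the same measure as the members' ratios of means. In 7 of the 10 genes both HOIL1-deficient f/f libraries were above all HOIL1-sufficient f/f libraries, where 14.2% of all genes with a count did the same, and with replicate 3 it was 3 genes (*Lrmp*, *Plcb2* and *Sucnr1*) and 3.8%. In 6 genes replicates 1 and 2 were above all 9 libraries of the other genotypes, against 3.48% of all genes. In edgeR's quasi-likelihood test, 9 of the 10 genes passed the filter on low counts and 2 were called higher (*Trpm5* and *Lrmp*), beside 0.0304% of all genes tested (0.00608% were called lower). With all 12 libraries none was called, nor was any other gene (0.0%). Leaving out replicate 1 or 2 of HOIL1-sufficient f/f mice also left 0 called, beside 0.0% of all genes each time. Leaving out replicate 3 of that genotype left 1, beside 0.0125% of all genes. EdgeR's likelihood ratio test called 3 members higher (0.632% of all genes) and DESeq2 4 (1.11%). These counts describe how the list was chosen and nothing is read from them, since the list was formed on this contrast, and the same holds for the other contrasts of CD45- cells.

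Between the *Hoil1* genotypes with *Il4ra* deleted in the epithelium, the members had no common direction. The median log2 ratio of HOIL1-deficient ΔIEC to HOIL1-sufficient ΔIEC mice was -0.31 over the 9 genes with a value, 3 of the 9 ratios were above 1, no gene had groups that did not overlap (5.33% of all genes were higher and 4.71% lower without overlap), and no member was called (0.0% of genes were called higher and 0.00608% lower). *Trpm5* had a ratio of 0.93, *Lrmp* of 1.13 and *Itpr3* of 0.81. *Gnb3* had no count in either group. Comparing HOIL1-deficient ΔIEC with HOIL1-deficient f/f mice, the median log2 ratio was -4.42 over 10 genes and all 10 ratios were below 1, and 6 genes were lower in every HOIL1-deficient ΔIEC library than in replicates 1 and 2 of HOIL1-deficient f/f mice (15.4% of all genes). The edgeR test called 2 of 9 lower, again *Trpm5* and *Lrmp*, where 0.0425% of all genes were (0.0% were called higher). Without replicate 1, 2 or 3 of HOIL1-deficient ΔIEC mice 0 members were called, beside 0.0%, 0.0% and 0.00612% of all genes. Without replicate 3 of HOIL1-sufficient f/f mice 1 was, beside 0.0125% of all genes. The likelihood ratio test and DESeq2 called 3 each, where 1.93% and 3.3% of all genes were called lower. With replicate 3 of HOIL1-deficient f/f mice the median was -3.84, 3 genes did not overlap (4.32% of all genes) and none was called (0.0% of all genes). This contrast and the one within f/f mice share the HOIL1-deficient f/f libraries, so they are not independent of each other. In *Hoil1*+/+ mice, deletion of *Il4ra* went with a median log2 ratio of 0.52 over 9 genes, 7 of them with a ratio above 1. The ratios of *Gnat3* and *Gng13* are lower bounds on 41 and 10 counts. In 0 of the 9 genes were the groups apart, where 2.89% of all genes were higher and 4.6% lower without overlap.

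The composition of the CD45- libraries differed between libraries of one genotype. The 12 epithelial markers summed to 16244, 14949 and 4712 CPM in HOIL1-deficient f/f libraries, to 8851, 2526 and 4012 CPM in HOIL1-sufficient f/f, to 15172, 12688 and 4075 CPM in HOIL1-sufficient ΔIEC and to 3406, 1631 and 7967 CPM in HOIL1-deficient ΔIEC libraries. None of the 12 was at 0 throughout. In the 4 libraries with the highest sums, *Trpm5* was at 235 and 259 CPM in HOIL1-deficient f/f mice and at 17.6 and 10.9 CPM in HOIL1-sufficient ΔIEC mice. *Lrmp* was at 71.4 and 125 CPM against 5.77 and 1.64 CPM in the same 4 libraries, and *Ffar3* at 24.005 and 32.7 CPM against 2.998 and 0 CPM. These 4 libraries differed in other markers: the goblet cell markers summed to 53882 and 36007 CPM in the HOIL1-deficient f/f and to 23726 and 23431 CPM in the HOIL1-sufficient ΔIEC libraries.

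Marker sums of other cell types were read in all CD45- libraries. In replicate 3 the goblet sum was 9581 CPM, and the other 9 libraries were between 2405 and 33906 CPM, so that replicates 1 and 2 were above all of them. Enterocyte markers summed to 36070, 26094 and 1773 CPM in HOIL1-deficient f/f and to 345 to 43906 CPM in the other libraries. Stromal markers summed to 557, 3146 and 9328 CPM against 734 to 10682 CPM. Endothelial markers summed to 2605, 5137 and 9448 CPM against 4132 to 17335 CPM. Those of enteroendocrine cells summed to 1442, 1015 and 1063 CPM against 275 to 1634 CPM. Muscle markers summed to 506, 2248 and 333 CPM against 1330 to 5595 CPM, so that 2 of the 3 were below every other library. The part of this composition in the levels of the 10 genes was not tested.

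Set against epithelial marker counts in place of library size, *Trpm5* stood at 145 and 173 per 10000 in replicates 1 and 2 of HOIL1-deficient f/f mice, at 6.42 in replicate 3 and between 8.59 and 44.6 in the other 9 libraries. *Plcb2* stood at 17.1, 33.4 and 34.1 per 10000, against 0.06 to 12.9, and *Lrmp* at 43.9, 83.8 and 20.4, against 1.29 to 18.8. *Itpr3* changed its order on this scale, with 114, 104 and 252 per 10000 in HOIL1-deficient f/f libraries and 71.7 to 843 in the others. The median log2 ratio of the list on this scale was 3.05 for HOIL1-deficient f/f against HOIL1-sufficient f/f mice and -2.16 for HOIL1-deficient ΔIEC against HOIL1-deficient f/f mice, or 2.62 and -1.60 with replicate 3. For HOIL1-deficient ΔIEC against HOIL1-sufficient ΔIEC mice it was 1.24, of the opposite sign to the value by library size.

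**Figure D2:**
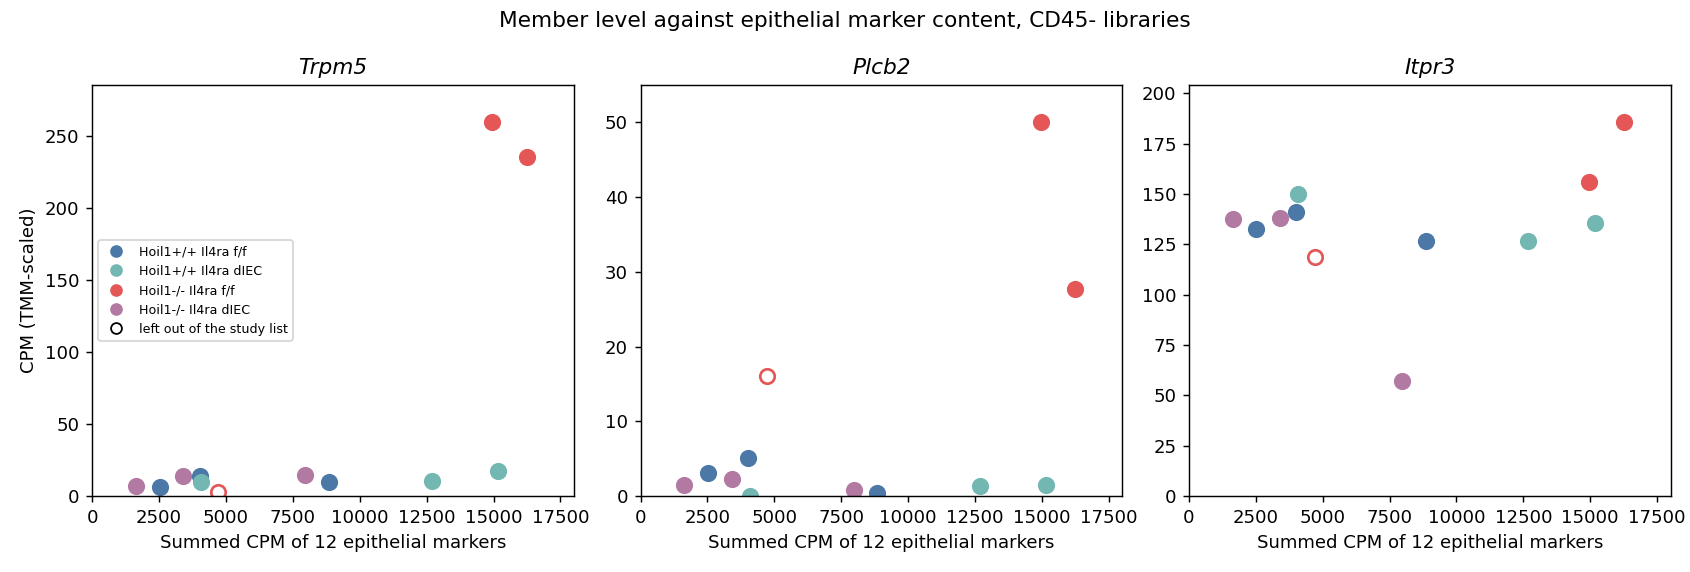
CPM of Trpm5, Plcb2 and Itpr3 (y axes, linear) against the summed CPM of 12 epithelial markers (x axes) in the 12 CD45- libraries, coloured by genotype, with an open point for the library left out of the study's list. At the 4 highest sums the HOIL1-deficient f/f libraries are at 235 and 259 CPM of Trpm5 and the HOIL1-sufficient ΔIEC libraries at 17.6 and 10.9 CPM.

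The summed level of the 8 general immune markers was also highest in HOIL1-deficient f/f mice, at 151, 212 and 108 CPM beside 37.7 to 85.6 CPM in the other CD45- libraries. With replicate 3 included, the ranges of the sums for single immune cell types overlapped. Myeloid markers were at 11.46 to 45.9 CPM against 7.43 to 49.1 CPM, B cell markers at 3.16 to 13.5 CPM against 0.30 to 9.81 CPM, and T cell markers at 4.46 to 17.6 CPM against 2.48 to 12.1 CPM. For B cell markers replicates 1 and 2, at 11.5 and 13.5 CPM, were above all CD45- libraries of the other genotypes, and replicate 3 was not. *Lrmp*, *Plcb2* and *Itpr3* are members that CD45+ cells also expressed. In the CD45+ libraries, where the immune sum was at least 3833 CPM, *Plcb2* was at no more than 75.1 CPM and *Lrmp* at no more than 80.8 CPM. The part of immune RNA in the levels of the CD45- libraries was not tested.

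A list of 14 tuft cell markers that holds none of the 10 genes was read beside them. In 12 of the 14, replicates 1 and 2 of HOIL1-deficient f/f mice were above all 9 libraries of the other genotypes (3.48% of all genes). Replicate 3 was above them in 2, *Alox5* and *Spib*. The markers were chosen with earlier results of these data known and were read in the same libraries. Their count is therefore a description and no separate support for the pattern of the 10 genes. *Sh2d6* was at 150, 253 and 4.34 CPM in the HOIL1-deficient f/f libraries, with 1.67 to 9.34 CPM elsewhere. *Dclk1*, a kinase used to mark tuft cells, was at 70.7, 109 and 26.4 CPM against 5.19 to 26.5 CPM, and *Pou2f3* at 18.5, 27.8 and 5.92 CPM against 0.15 to 6.22 CPM. *Il25* had counts in 1 of the 24 libraries, replicate 2 of CD45- HOIL1-deficient f/f mice (2.48 CPM). *Ptgs1* did not follow the others, at 61.8, 124 and 21.4 CPM in the HOIL1-deficient f/f libraries against 21.3 to 127 CPM. *Alox5*, *Ltc4s*, *Ptgs1*, *Spib*, *Cd24a* and *Il17rb* of this list were also expressed in CD45+ cells, up to 61.7, 91.2, 350, 127, 289 and 131 CPM.

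**Figure D3:**
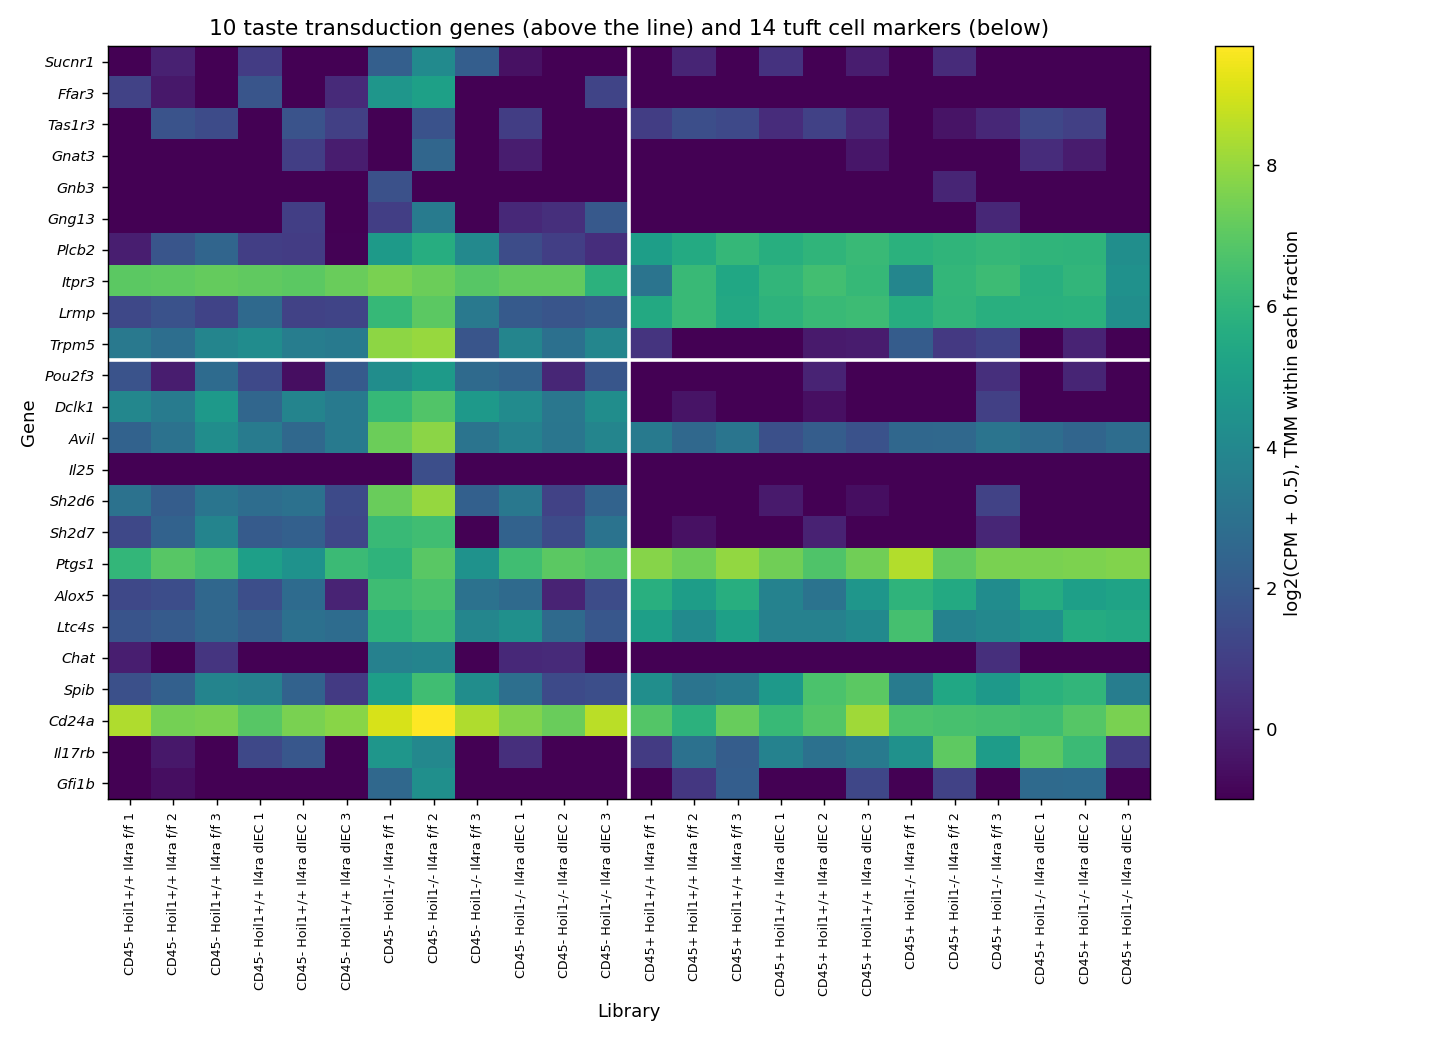
log2(CPM + 0.5) of the 10 taste transduction genes (above the white line) and 14 tuft cell markers (below) in the 12 CD45- libraries (left) and the 12 CD45+ libraries (right), with scaling within each fraction. The CD45- columns of HOIL1-deficient f/f replicates 1 and 2 are above the other 3 genotypes for 12 of the 14 markers, and replicate 3 is above them in 2.

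The correlation of each member with the mean of the other 9 was taken across the 12 CD45- libraries on the scale of log2(CPM + 0.5). Pearson's r was 0.93 for *Lrmp*, 0.88 for *Trpm5*, 0.81 for *Sucnr1*, 0.78 for *Ffar3* and 0.76 for *Plcb2*. It was 0.63 for *Gng13*, 0.56 for *Gnat3*, 0.46 for *Gnb3*, 0.36 for *Itpr3* and 0.05 for *Tas1r3*. Without the 3 HOIL1-deficient f/f libraries it fell to 0.40 for *Trpm5*, 0.31 for *Sucnr1*, 0.19 for *Lrmp* and 0.04 for *Plcb2* and *Gnat3*. It was then -0.22 for *Tas1r3*, -0.27 for *Itpr3*, -0.29 for *Gng13* and -0.49 for *Ffar3*, and *Gnb3* had no value. The correlations over the 12 libraries thus rest on that genotype. Among 13914 other genes with a mean of at least 1 CPM, the 10 most like the members' mean were *Krt27*, *Gfi1b*, *Ighv9-4*, *Rgs22*, *Sh2d6*, *Ethe1*, *Ighv1-61*, *F930017D23Rik*, *Avil* and *Ptpn18*, with r from 0.98 to 0.94. *Krt27* and *Ighv9-4* had no count in CD45- cells outside HOIL1-deficient f/f mice. *Gfi1b*, *Rgs22*, *Ighv1-61* and *F930017D23Rik* were at no more than 0.57 CPM there. All of these genes reached the mean of 1 CPM only through the HOIL1-deficient f/f libraries. Without those libraries r ran from -0.34 (*F930017D23Rik*) to 0.79 (*Ethe1*), with no value for *Krt27* and *Ighv9-4*. *Ptpn18*, a tyrosine phosphatase, was at 25.5 to 228 CPM in HOIL1-deficient f/f libraries and 19.4 to 39.2 CPM in the others. The libraries share their composition and depth and the members were chosen with these values known, so r is given as a description.

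Paralogs of the members were read as well, and none was called. *Gnb1*, the common beta subunit, was at 479 to 580 CPM in HOIL1-deficient f/f libraries and 416 to 598 CPM in the other CD45- libraries, with a log2 fold change between HOIL1-deficient f/f and HOIL1-sufficient f/f mice of 0.19 (SE 0.27, adjusted p = 0.76, quasi-likelihood test of edgeR). *Plcb3*, a phospholipase C of the same family as *Plcb2*, was at 135 to 565 CPM in HOIL1-deficient f/f and 166 to 509 CPM in the other libraries (log2 fold change 0.59, SE 0.41, adjusted p = 0.50). Of the other inositol trisphosphate receptors, *Itpr1* gave -0.73 (SE 0.49, adjusted p = 0.48) and *Itpr2* 1.03 (SE 0.50, adjusted p = 0.39). *Trpm4*, the channel closest to *Trpm5*, gave 1.19 (SE 0.53, adjusted p = 0.38), and it was at 286 and 145 CPM in replicates 1 and 2 of HOIL1-deficient f/f mice and at 186 and 256 CPM in the 2 epithelium-rich libraries of HOIL1-sufficient ΔIEC mice. *Gnat1* and *Gnat2*, the transducins of the retina, were at 0 to 4.87 CPM and 0 to 2.64 CPM in HOIL1-deficient f/f libraries. With all 12 libraries the log2 fold changes were 0.13 for *Gnb1*, 0.22 for *Plcb3*, -1.16 for *Itpr1*, 0.66 for *Itpr2* and 0.80 for *Trpm4*, with adjusted p from 0.56 to 0.92. None of these genes passed the threshold in any of the contrasts of CD45- cells.

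The wider chain was read from a list of 132 genes of receptors, G proteins, regulators of G protein signaling, phospholipases, calcium stores, cyclic nucleotide enzymes and channels. Of these, 90 had a count in CD45- cells and 81 were tested. No gene of the 81 passed in either direction for HOIL1-deficient f/f against HOIL1-sufficient f/f mice, and 32 had a positive and 48 a negative log2 fold change, with a median of -0.22 beside -0.17 over all genes tested. At an unadjusted p under 0.05 there were 15, or 18.5% beside 13.1% of all genes. EdgeR's likelihood ratio test called 3 (3.7% beside 2.13% of all genes) and DESeq2 called 5 (6.17% beside 4.09%). For HOIL1-deficient ΔIEC against HOIL1-deficient f/f mice none passed, with a median of 0.47 beside 0.17 over all genes. At an unadjusted p under 0.05 there were 19 (23.5% beside 17.7% of all genes), and the likelihood ratio test and DESeq2 called 4 and 7 (4.94% and 8.64% beside 3.99% and 8.05%). Between HOIL1-deficient ΔIEC and HOIL1-sufficient ΔIEC mice none passed under any of these tools, where 0.377% of all genes did by the likelihood ratio test and 0.921% by DESeq2, and 6 were at an unadjusted p under 0.05 (7.41% beside 7.66%). For the interaction of the genotypes the quasi-likelihood test called 0 of the list and 0.0% of all genes. At an unadjusted p under 0.05 there were 21 (25.9% beside 20.7%), with 9 by the likelihood ratio test (11.1% beside 7.43%) and 8 by DESeq2 (9.88% beside 9.78%). Of the members, 0 were called for the interaction by the quasi-likelihood test and 2 by each of the other tools.

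A few genes of this wider list were picked out after their values were seen. *Plcg2*, the phospholipase C of receptor tyrosine kinase and immune receptor signaling, was at 80.7 and 80.2 CPM in replicates 1 and 2 of HOIL1-deficient f/f mice, at 16.7 CPM in replicate 3 and at 7.15 to 22.4 CPM in the other genotypes. Its log2 fold change was 2.16 (SE 0.43, adjusted p = 0.13, edgeR) against HOIL1-sufficient f/f mice, and -2.47 (SE 0.43, adjusted p = 0.11) in HOIL1-deficient ΔIEC against HOIL1-deficient f/f mice. *Rgs13*, a regulator of G protein signaling, was at 22.9, 76.6 and 19.99 CPM in the HOIL1-deficient f/f libraries and at 1.34 to 12.7 CPM in the other genotypes (log2 fold change 2.97, SE 1.00, adjusted p = 0.34). Most regulators of G protein signaling went the other way. Of the 10 tested between HOIL1-deficient f/f and HOIL1-sufficient f/f mice, 7 had a negative log2 fold change and 3 a positive one, with a median of -0.83. *Gnao1*, an alpha subunit known from neurons, was at 10.7, 14.1 and 11.97 CPM in HOIL1-deficient f/f and at 40.6, 41.9 and 54.4 CPM in HOIL1-sufficient f/f mice (log2 fold change -1.90, SE 0.35, adjusted p = 0.11). None of these passed the threshold of the main test. *Plcg2* and *Gnao1* did pass with DESeq2 and with the likelihood ratio test. With all 12 libraries the log2 fold change against HOIL1-sufficient f/f mice was 1.73 for *Plcg2* (SE 0.56, adjusted p = 0.45, edgeR), 2.66 for *Rgs13* (SE 0.95, adjusted p = 0.51) and -1.90 for *Gnao1* (SE 0.31, adjusted p = 0.18), and that of *Plcg2* in HOIL1-deficient ΔIEC against HOIL1-deficient f/f mice was -2.03 (SE 0.56, adjusted p = 0.38).

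In CD45+ cells, whose genotype differences did not choose the list, 7 of the 10 genes passed the filter and none was called for *Hoil1* averaged over the *Il4ra* genotypes, within f/f mice or within ΔIEC mice. Of 17029 genes tested, 0.0% were called in either direction within f/f mice, 0.0% within ΔIEC mice and 0.00587% for the average. Within f/f and within ΔIEC mice the test thus did not call even *Rbck1*, the mutated gene. A lack of calls there cannot show that the members were unchanged. By edgeR's likelihood ratio test and DESeq2 the count of members was also 0. For the average these tools called 78 and 74 genes higher and 25 and 52 lower, of 17029 and 16343 tested. Within f/f mice they called 57 and 60 higher and 9 and 33 lower, of 17029 and 15065. Within ΔIEC mice they called 27 and 67 higher and 24 and 92 lower, of 17029 and 14767. *Lrmp*, which B cells are known to express, was at 18.996 to 80.8 CPM in the 12 libraries, *Plcb2* at 19.2 to 75.1 CPM and *Itpr3* at 8.25 to 87.4 CPM. Averaged over *Il4ra*, the log2 fold change for loss of *Hoil1* was -0.14 for *Lrmp* (SE 0.19, adjusted p = 0.94), 0.19 for *Plcb2* (SE 0.22, adjusted p = 0.92) and 0.25 for *Itpr3* (SE 0.45, adjusted p = 0.98). With all 12 libraries the estimates of *Plcb2* and *Itpr3* turned to -0.01 and -0.14. The lowest levels of *Itpr3*, 8.25 and 14.5 CPM, were in replicate 1 of HOIL1-sufficient f/f and replicate 1 of HOIL1-deficient f/f mice, the 2 libraries with the highest myeloid marker sums of 7293 and 7964 CPM, and their part in it was not tested.

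*Trpm5* was near its limit in CD45+ cells. It was at 3.76, 1.20 and 1.70 CPM in HOIL1-deficient f/f, at 1.02, 0 and 0 CPM in HOIL1-sufficient f/f, at 0, 0.34 and 0.38 CPM in HOIL1-sufficient ΔIEC and at 0, 0.54 and 0 CPM in HOIL1-deficient ΔIEC libraries. The HOIL1-deficient f/f libraries were above all the others, and within f/f mice, where replicate 1 of HOIL1-deficient f/f mice is left out, the log2 fold change was 2.09 (SE 2.79, adjusted p = 0.99, edgeR). The 12 epithelial markers summed to 388, 144 and 316 CPM in the HOIL1-deficient f/f libraries and to 59.2 to 425 CPM in the others, so the 2 ranges overlapped. *Tas1r3* ran the other way, at 0, 0.24 and 0.65 CPM in HOIL1-deficient f/f against 1.43, 2.49 and 2.04 CPM in HOIL1-sufficient f/f libraries (log2 fold change -2.16, SE 1.12, adjusted p = 0.84). Within f/f mice the other members overlapped, and 2.58% of all genes were higher and 3.32% lower without overlap (8.06% and 7.47% in the libraries the study kept). *Ffar3* had no count in any CD45+ library, where 3 counts over the 12 libraries would be 0.0056 CPM. *Gnb3* and *Gng13* had counts in 1 CD45+ library each, *Gnat3* in 3 and *Sucnr1* in 4.

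Set side by side with a common scaling over the 24 libraries, the fractions divided the list. The values chose the members in part and are a description. In HOIL1-deficient f/f mice 8 of the 10 genes had a higher mean in the 3 CD45- than in the 3 CD45+ libraries. *Trpm5* was at 144 against 2.54 CPM, a ratio of 57.0, and *Sucnr1* at 7.24 against 0.28 CPM. *Ffar3* was at 16.5 CPM against no count, at least 578-fold higher than the floor of 3 counts over the CD45+ libraries. *Plcb2* was higher in CD45+ cells, at 71.3 against 27.1 CPM, and *Lrmp* was nearly level, at 64.0 against 59.9 CPM. In the 2 libraries of each fraction that the study kept, a comparison added after the data were seen, 9 of the 10 genes were higher in CD45- cells, since *Lrmp* turned to 85.8 CPM in CD45- against 67.2 CPM in CD45+ cells. There *Trpm5* was at 215 against 1.66 CPM, a ratio of 130, *Sucnr1* at 9.14 against 0.42 CPM, *Plcb2* at 33.9 against 74.6 CPM, and the bound of *Ffar3* was 660-fold. In the other 3 genotypes every CD45+ library was above every CD45- library for *Lrmp* and *Plcb2*. *Trpm5* had the reverse order in those genotypes, with every CD45- library above every CD45+ library.

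**Figure D4:**
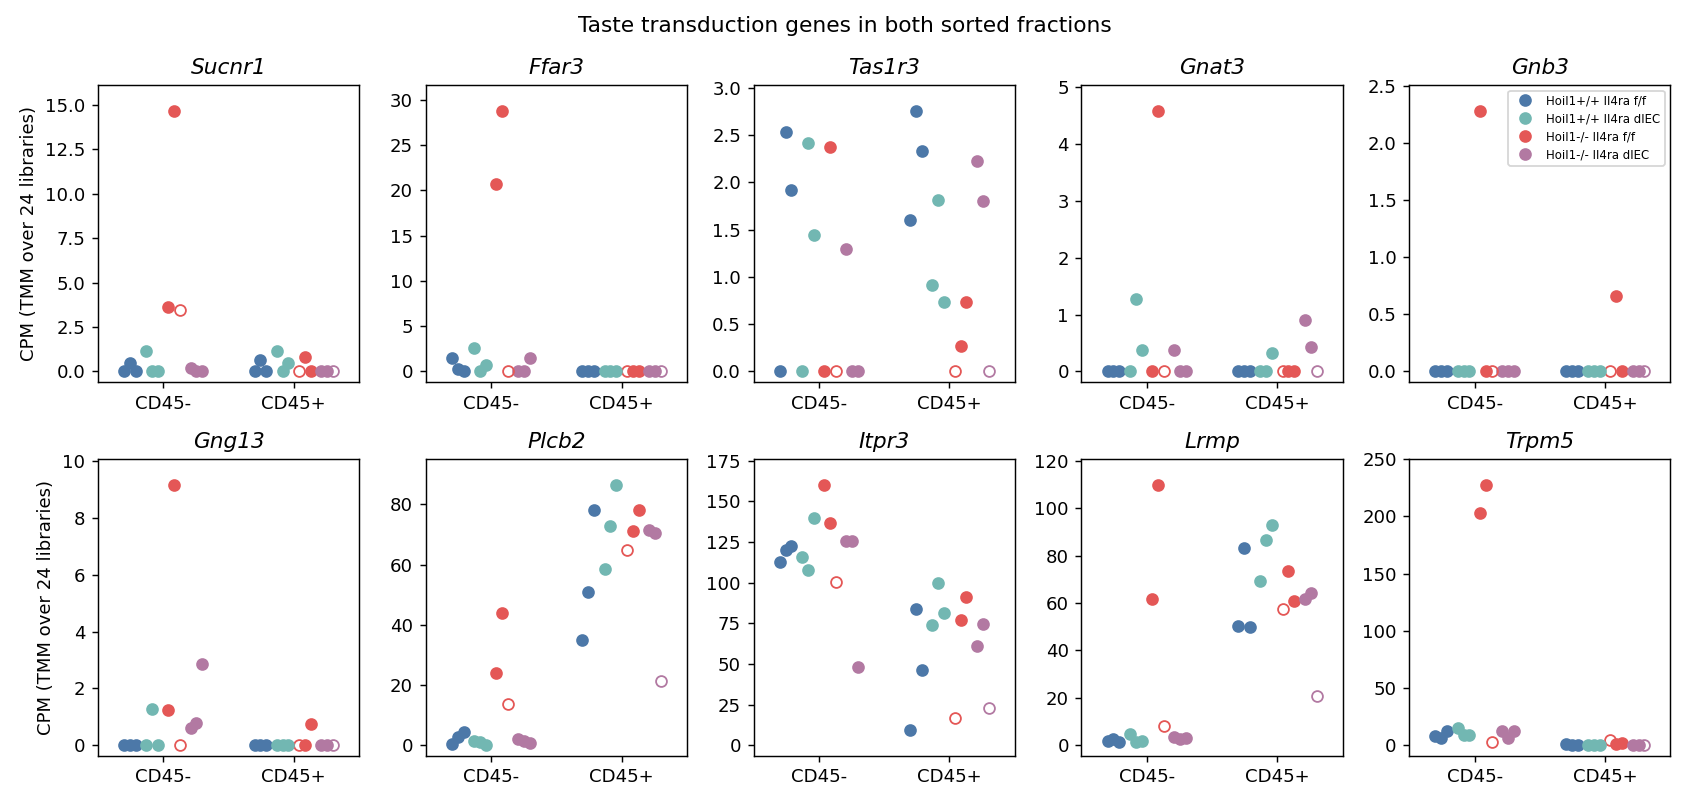
CPM of the 10 genes (one panel each, linear axes) in CD45- and CD45+ libraries, scaled together over the 24 libraries, coloured by genotype and with open points for the 3 libraries left out of the study's list. Ffar3 has no count in CD45+ cells, Trpm5 reaches 4.30 CPM there, and Lrmp and Plcb2 are high in CD45+ cells of every genotype and in CD45- cells only of HOIL1-deficient f/f mice.

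Among the members, 5 overlap another annotated gene on the opposite strand: *Trpm5* overlaps *Tssc4*, *Lrmp* overlaps *Casc1*, *Tas1r3* overlaps *Dvl1*, *Gng13* overlaps *Chtf18* and *Itpr3* overlaps *Itpr3os*. The library kit kept the strand, but whether the counting used it is not given in the sources used here, so reads of these partners cannot be told apart from those of the members. How much of the counts of each member came from such a partner was not tested.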

How the data were processed

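RNA of sorted CD45+ and CD45- ileal cells was sequenced from poly-A libraries without molecular identifiers. The authors used cutadapt for trimming, STAR for alignment (mm10) and featureCounts for counting, with options not given in the sources used here, and deposited raw counts per gene without normalization. The 39056 identifiers were matched to GENCODE M21, 34299 with and 4573 without their version. The 10 members, the pathway list and the marker lists were chosen with earlier results of these data known. 1 gene of the tuft cell marker list is not reported here.

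Tests used edgeR 4.0.16 (quasi-likelihood, TMM, minimum count 10, minimum total 15, R 4.3.3) in each fraction over all genes, with a mean for each genotype, Benjamini-Hochberg adjustment and a threshold of 0.05, on the 11 CD45- and 10 CD45+ libraries that the study kept. They were checked on counts simulated with the same dispersion for every gene and the same composition in every library. Such counts do not show how the tests perform where composition varies, as it did here. The SE beside an edgeR log2 fold change is the size of that change divided by the square root of its F statistic, so it is approximate. A group with no count was set to a floor of 3 counts over the group. Named are the members, their paralogs, pathway genes past the threshold (none passed), marker sums, *Rbck1*, *Il4ra* and the 10 genes most like the members' mean. *Plcg2*, *Rgs13*, *Gnao1* and the single tuft cell markers were picked after their values were seen. Alternatives were all 12 libraries, RLE, CPM by total counts, epithelial marker counts, DESeq2 1.42.0, the likelihood ratio test, no filter and leaving out each library. Depth was 6028275 to 76807504 counts per library.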

Additional observations from a re-analysis of the deposited data

How the results depend on the processing

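Median log2 ratios of the members in CD45- cells depended on 1 library and on the scale. For HOIL1-deficient f/f against HOIL1-sufficient f/f mice the value of 5.01 became 4.43 with all 12 libraries and 3.05 relative to epithelial marker counts, and leaving out 1 library gave 4.65 to 5.63. With all 12 libraries and epithelial marker counts together, a setting added after the data were seen, it was 2.62. For HOIL1-deficient ΔIEC against HOIL1-deficient f/f mice the value of -4.42 became -3.84, -2.16 and, with both, -1.60, with -5.04 to -3.90 when 1 library was left out. For HOIL1-deficient ΔIEC against HOIL1-sufficient ΔIEC mice the value of -0.31 became 1.24 relative to epithelial marker counts and ranged from -0.47 to 0.74, the latter without replicate 1 of HOIL1-sufficient ΔIEC mice. The cause was not tested. RLE size factors and CPM by total counts moved none of the 3 by more than the spread between libraries.

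In the pathway list, the counts of 0 became 5 (DESeq2) and 3 (likelihood ratio test) for *Hoil1* in f/f mice, 7 and 4 for *Il4ra* in *Hoil1*-/- mice, and 8 and 9 for the interaction. Beside them, DESeq2 and the likelihood ratio test called 4.09% and 2.13%, 8.05% and 3.99%, and 9.78% and 7.43% of all genes. Leaving out 1 library gave 0 to 5, 0 to 8 and 0 to 8. The counts of 5, 8 and 6 came without replicate 2 of CD45- HOIL1-deficient f/f mice, where 1 library is assumed to vary like the other groups, and 2.71%, 3.29% and 4.13% of all genes were called there. The 8 of the interaction came without replicate 3 of HOIL1-sufficient ΔIEC mice, where 7.48% of all genes were called. All 12 libraries, RLE size factors and no filter left these counts at 0, as they did in ΔIEC mice. No member was called in CD45+ cells under any alternative run. With all 12 libraries, RLE size factors or no filter, at most 5 of all genes were called higher and 1 lower there for loss of *Hoil1*. With all 12 CD45+ libraries the averaged log2 fold change turned to -0.14 for *Itpr3* and -0.015 for *Plcb2*. That of *Lrmp* ranged from -0.22 to 0.0031 when 1 library was left out, the latter without replicate 2 of HOIL1-sufficient f/f mice. By total counts, and in the libraries the study kept (added after the data were seen), 9 in place of 8 members were higher in CD45- than in CD45+ cells of HOIL1-deficient f/f mice. No paired analysis was possible because the labels give the libraries no shared replicate number.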
